A study of Vitis vinifera with 2 samples.

Results

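Windows of 500 bp in which CHG methylation differed between the autotetraploid and the diploid grapevine while CG methylation was kept numbered 1162 of the 337817 windows that could be judged on chromosomes 1 to 19. CHG methylation was higher in 4X in 576 of them, called gains, and lower in 4X in 586, called losses. A window could be judged when it held at least 6 CG and 6 CHG cytosines listed in both libraries and at least 60 CHG reads in each. CG was called kept when its level was 70% or more in both libraries and differed by under 10 points, which held in 181991 windows. The 1162 windows were selected on a CHG difference of 20 points or more among those. The CG and CHG levels therefore chose the windows, and both are given as a description with no test.

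The series compared 4X, an autotetraploid induced with colchicine, and 2X, the diploid Vitis vinifera accession 'Jingyanjing' it was made from, by whole-genome bisulfite sequencing of terminal buds. In this method unmethylated cytosines are converted and read as thymine, so a cytosine that is still read as cytosine counts as methylated. Each ploidy gave 1 library from pooled vines, so a difference between these libraries cannot be told apart from a difference between pools or from one that arose in tissue culture. Mean depth on chromosomes 1 to 19 was 11.7 reads per listed cytosine in 4X and 12.7 in 2X. The level of a window was the sum of its methylated reads over the sum of all its reads in that context. All differences are 4X minus 2X, in points of percent. All intervals are 95% intervals, and they cover counting error only. Read numbers are sums over cytosines, so a read that covers several cytosines is counted at each of them. The intervals treat these counts as separate and may be narrower than the real counting error.

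Plants methylate cytosine in 3 sequence contexts, CG, CHG and CHH, where H is A, C or T. CG methylation is copied onto the new strand after replication by MET1. CHG methylation is kept up mainly by CMT3, which binds histone H3 methylated at lysine 9, while the methylation of that histone is in turn placed by enzymes that bind methylated DNA. CHH methylation has no symmetrical partner on the other strand and is set anew by RNA-directed DNA methylation or by CMT2. These roles are known best from Arabidopsis. Silent transposons usually carry all 3 marks, whereas the bodies of many active genes carry CG methylation alone, a state that the histone demethylase IBM1 guards against CHG methylation in Arabidopsis. Windows with a kept CG level and an unequal CHG level are therefore windows in which marks with different upkeep did not differ alike between the libraries.

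Gains made up 0.316% of the windows with CG kept and losses 0.322%. Of the members, 49.6% were gains. Most windows with CG kept had like CHG levels in both libraries. In 70.9% of them the difference was under 5 points and in 91.6% under 10 points, with a median of 0 points and an SD of 5.65 points over windows.

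Reads dealt again at random served as the measure of counting error that the selection asks for. The reads of both libraries at each cytosine were put together and dealt into 2 sets of the real depths. In 3 such deals 56, 54 and 64 windows passed as gains and 57, 62 and 52 as losses. The mean was 10.1% of the observed number of gains and 9.73% of that of losses. At 30 points or more 69 gains and 70 losses were observed, and the 3 deals together gave 1 window in each direction. Dealing treats neighbouring cytosines as separate although they lie on the same reads, so it may hold less spread than real counting error. The SD of the CHG difference over windows with CG kept was 4.18 to 4.21 points in the deals.

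The windows of small depth held most of the overlap with the deals. Of the gains, 297 had 60 to 99 CHG reads in the shallower library, where the deals averaged 49.7. In the same class there were 264 losses, where the deals averaged 48.7. With 200 CHG reads or more in both libraries, 60 gains and 84 losses were observed, against averages of 0 and 0.667 in the deals. The class of 60 to 99 reads held 16.5% of the windows with CG kept, of which 0.991% were gains and 0.881% losses. The class of 200 reads or more held 45.1% of them, of which 0.0732% were gains and 0.102% losses. Members also held fewer CHG cytosines than other windows. The median was 10 in gains and 11 in losses, against 17 in all windows with CG kept. Gains had a median of 104 CHG reads in 4X and 112 in 2X. Losses had 111 in 4X and 126 in 2X. All windows with CG kept had 195 in 4X and 214 in 2X. The part of depth and cytosine number in the member counts was not tested.

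CHG levels of the members were mostly intermediate in the library where they were lower. Gains had a median CHG level of 69.9% in 4X and 45.4% in 2X. Losses had a median of 38.8% in 4X and 63.4% in 2X. CG had a median of 89.9% in 4X and 88.2% in 2X in gains, and of 89.2% in 4X and 89.9% in 2X in losses. The size of the CHG difference was mostly near the threshold. It lay between 20 and 25 points in 386 gains and 402 losses, and it reached 40 points in 16 gains and 12 losses. The plot of CHG levels shows both groups as bands along the diagonal.

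**Figure D1:**
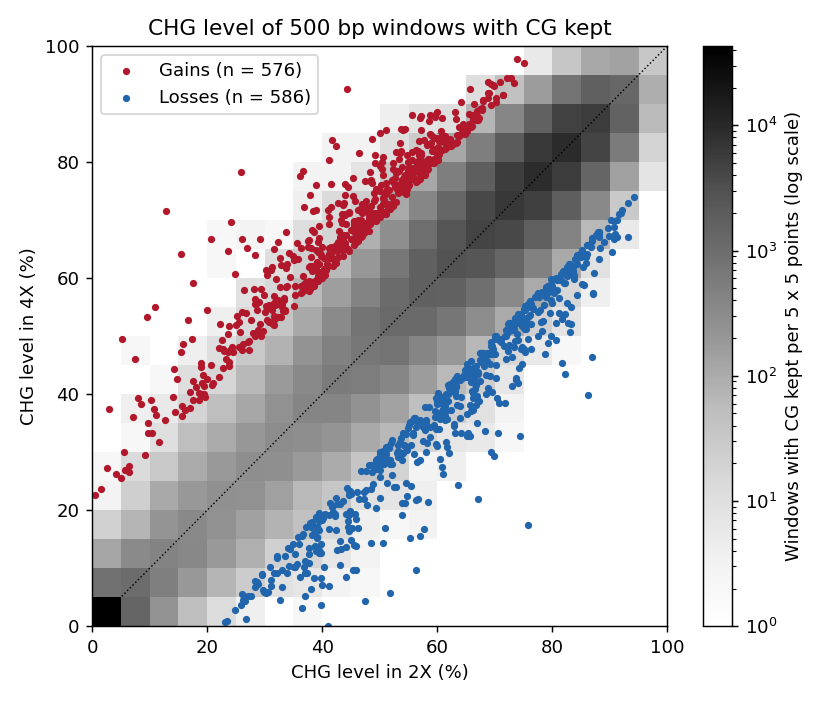
CHG level in 4X (vertical axis, %) against that in 2X (horizontal axis, %) for each of the 576 gains (red points) and 586 losses (blue points), over the number of all windows with CG kept per square of 5 by 5 points (grey, log scale). The gap of 20 points on either side of the dotted line of equal levels comes from the selection, and most points sit close to its edge, with few windows at 40 points or more.

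CG differed slightly in these windows as well. It was higher in 4X in 361 of 576 gains, or 62.7%, against 51.4% of all windows with CG kept. It was lower in 4X in 318 of 586 losses, or 54.3%, against 48.3% of all windows with CG kept. The CG difference was under 5 points in 69.6% of gains and 72.0% of losses, against 76.7% of all windows with CG kept. CG was at 90% or more in both libraries in 30.7% of gains and 35.5% of losses, against 38.0% of all windows with CG kept.

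The CHG level of the reads of both libraries together placed the members between the fully methylated windows and those with CG alone. Of all windows with CG kept, 47.3% had a pooled CHG level of 70% or more and 25.9% one under 10%. Windows between 30 and 50% were rare, at 4.62%, but held 25.5% of the gains and 176 of the 586 losses. In that class 1.75% of windows were gains and 2.09% were losses. Windows between 50 and 70% held 51.0% of gains and 38.2% of losses. Between 10 and 30% there were 41 gains and 96 losses, which is 7.12% of gains and 16.4% of losses. No member had a pooled level under 10%. At like depths the threshold on the CHG difference nearly bars such a level, so this absence is largely set by the selection. The same holds for levels close to full methylation. The place of the members between the extremes is thus in part a result of the selection and is given as a description. Intermediate levels also have the largest counting error, and the re-dealt windows lay mostly between 50 and 70% too, with 59.2% of the re-dealt gains and 54.4% of the re-dealt losses. The bars by pooled level show these shares.

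**Figure D2:**
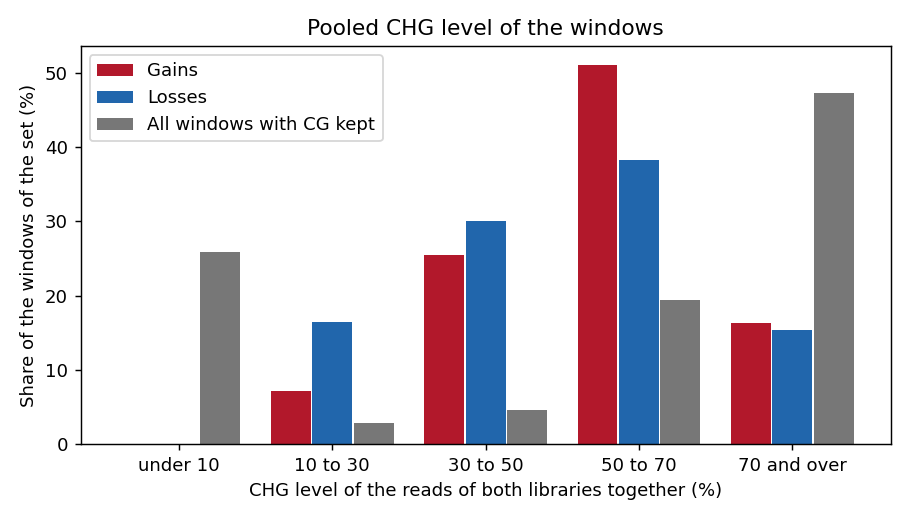
Share of gains (red), losses (blue) and all windows with CG kept (grey) in 5 classes of the CHG level pooled over both libraries (horizontal axis, %; vertical axis, % of the windows of each set). The grey bars are tallest at 70% and over and under 10%, while the gains and losses are gathered in between, with 51.0% of gains and 38.2% of losses from 50 to 70%. The absence of gains and losses under 10% is largely set by the selection.

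The largest gain was at chr19:6087001-6087500. Its CHG level was 71.6% of 74 reads in 4X (interval 60.5 to 80.6%) and 12.9% of 70 reads in 2X (6.91 to 22.7%), a difference of 58.8 points (43.9 to 69.6). Its CG level was 87.3% in 4X and 92.9% in 2X, and its CHH level 0.754% in 4X and 0.403% in 2X. It held 6 CHG cytosines, of which 5 lay close together, 334 to 346 bp from the window start. These 5 had levels of 66.7 to 83.3% in 4X and 0 to 30% in 2X, and the sixth, at 204 bp, had 0 of 6 reads methylated in 4X and 1 of 8 in 2X. The 5 neighbours share reads, so this difference rests on few independent molecules.

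The second gain, at chr2:4567001-4567500, had a CHG level of 78.2% of 133 reads in 4X and 25.9% of 85 reads in 2X, a difference of 52.3 points (39.5 to 62.5). All 7 of its CHG cytosines were higher in 4X. The gain at chr7:3742001-3742500 had 64.2% in 4X and 15.4% in 2X, and 8 of 9 CHG cytosines were higher in 4X. There the CHH level went the other way, with 2.36% in 4X and 4.72% in 2X. At chr13:22012001-22012500 the CHG level was 92.5% in 4X and 44.3% in 2X, and all 6 CHG cytosines were higher in 4X.

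The gain at chr11:9007501-9008000 was measured at 15 CHG cytosines spread over much of the window, of which 14 were higher in 4X. Its CHG level was 66.8% of 229 reads in 4X and 20.7% of 237 reads in 2X, a difference of 46.1 points (37.7 to 53.6). Its CHH level was 2.02% in 4X and 0.400% in 2X. The gain at chr9:16987001-16987500 had 69.6% in 4X and 24.2% in 2X over 12 CHG cytosines, 11 of them higher in 4X and 1 at 0% in both libraries. These 6 differences ran from 45.4 to 58.8 points, and in the deals 1 gain in all reached 30 points.

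The largest loss, at chr12:21366501-21367000, had a CHG level of 17.5% of 103 reads in 4X (interval 11.3 to 25.9%) and 75.8% of 186 reads in 2X (69.2 to 81.4%), a difference of -58.3 points (-66.6 to -47.6). Its CG level was 92.2% in 4X and 89.9% in 2X. Of its 13 CHG cytosines, which ran over most of the window, 10 were lower in 4X, 1 was higher and 2 were equal. The cytosine 91 bp from the start had 1 of 15 reads methylated in 4X and 25 of 31 in 2X, and that at 108 bp had 1 of 10 in 4X and 28 of 32 in 2X.

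The loss at chr3:12816001-12816500 had all CG reads methylated, 47 in 4X and 41 in 2X. Its CHG level was 9.76% of 82 reads in 4X and 56.3% of 80 reads in 2X, a difference of -46.5 points (-57.9 to -32.8). Of its 6 CHG cytosines, 5 were lower in 4X, and the cytosine nearest the start had 4 of 7 reads methylated in both libraries. The window thus had full CG methylation and little CHG methylation in 4X, while CHG was intermediate in 2X.

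**Figure D3:**
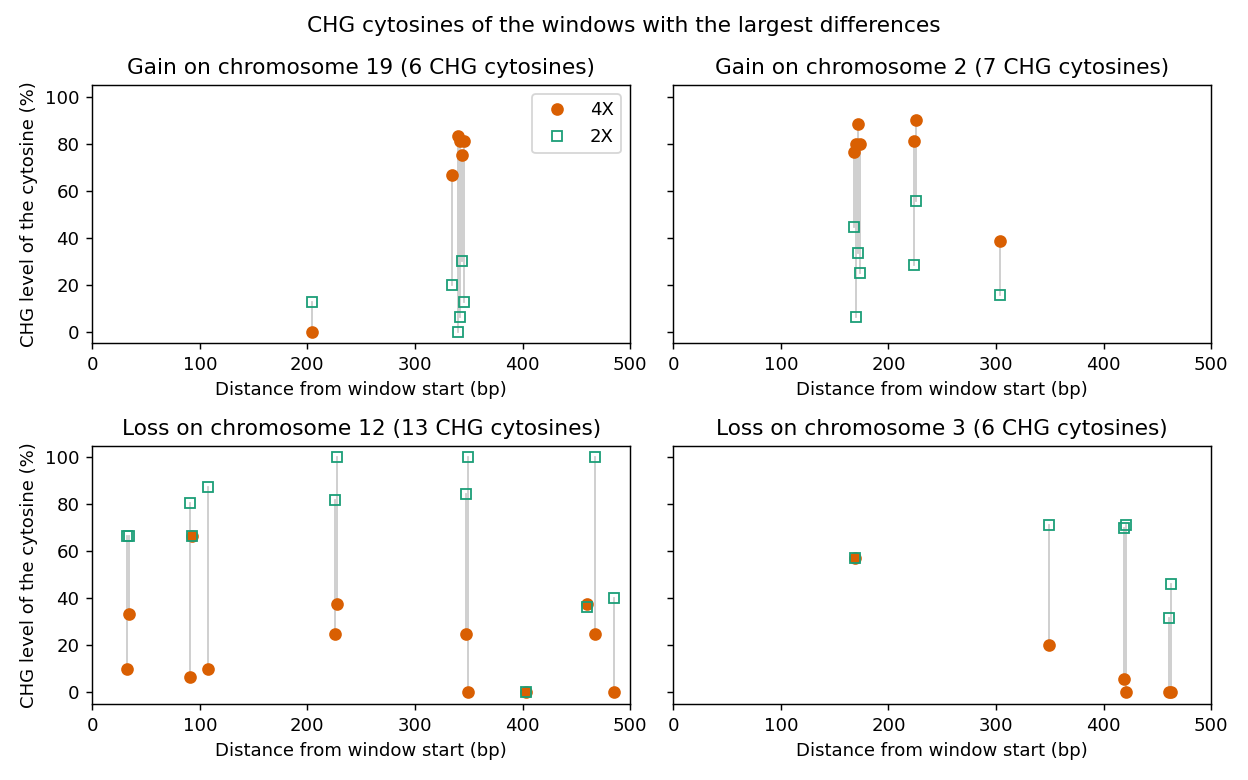
CHG level of each cytosine (vertical axis, %) by its distance from the window start (horizontal axis, bp) in 4X (filled circles) and 2X (open squares), for the 2 largest gains and the 2 largest losses. Grey lines join the libraries. The cytosines of the gain on chromosome 19 that were higher in 4X lie within 334 to 346 bp, whereas the 13 cytosines of the loss on chromosome 12 run across the window.

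Chromosome 19 held 3 of the 6 largest losses. It held 50 of all 586 losses and 10811 of the 181991 windows with CG kept, and whether losses gather there was not tested. At chr19:5769501-5770000 the CHG level was 39.9% in 4X and 86.2% in 2X, and 14 of 15 CHG cytosines were lower in 4X with the other at 0% in both. At chr19:22580501-22581000 it was 5.80% of 138 reads in 4X and 51.8% of 164 reads in 2X. There 18 of 19 CHG cytosines were lower in 4X, and 15 of the 19 had no methylated read in 4X. At chr19:16373001-16373500 it was 22.0% in 4X and 67.1% in 2X. The remaining one of the 6, at chr9:10954001-10954500, had 4.40% in 4X and 47.4% in 2X. Its difference was -43.0 points over all 9 CHG cytosines and -26.2 points over those with at least 10 reads in 4X and in 2X.

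The members with most reads had smaller and more tightly bounded differences. At chr16:1350501-1351000 the CHG level was 83.3% of 800 reads in 4X and 63.2% of 826 reads in 2X, a difference of 20.1 points (15.8 to 24.2) over 42 CHG cytosines. At chr16:18853501-18854000 it was 83.4% of 699 reads in 4X and 62.1% of 737 reads in 2X. At chr18:29293001-29293500, with 52 CHG cytosines, it was 54.1% of 660 reads in 4X and 30.04% of 729 reads in 2X. CHH was higher in 4X in all 3 of these gains, by 0.660 to 1.48 points. At chr18:29293001-29293500 the interval of the CHH difference took in both signs (-0.434 to 1.80 points).

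Among losses, chr5:17737501-17738000 had a CHG level of 47.2% of 744 reads in 4X and 69.3% of 724 reads in 2X, a difference of -22.2 points (-27.0 to -17.2). At chr16:3675501-3676000 it was 11.2% of 507 reads in 4X and 36.9% of 693 reads in 2X. At chr19:36501-37000 it was 23.6% of 704 reads in 4X and 48.5% of 826 reads in 2X. CHH was lower in 4X in all 3 of these losses. At chr5:17737501-17738000 the interval of the CHH difference took in both signs (-1.96 to 0.274 points).

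Most members had no member of the same direction beside them, namely 552 of 576 gains and 568 of 586 losses. There were 12 pairs of adjacent gains and 9 pairs of adjacent losses, no longer runs, and 1 place where a gain touched a loss. The pairs held 24 gains and 18 losses, while gains were 0.316% and losses 0.322% of all windows with CG kept. Whether members lay together more often than other windows was not tested. The pair of gains with most reads was chr17:1562501-1563000, with 65.3% CHG in 4X and 26.9% in 2X, and chr17:1563001-1563500, with 60.7% in 4X and 24.8% in 2X. They held 26 and 20 CHG cytosines. The pair of losses with most reads joined chr19:36501-37000 to chr19:37001-37500, which had 37.7% in 4X and 57.8% in 2X.

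At the threshold itself, the gain just inside was chr14:1241501-1242000, with 60% in 4X and 40% in 2X, and the window just outside was chr12:17180001-17180500, with 74.4% in 4X and 54.4% in 2X. For losses, chr16:11210001-11210500 was just inside with 30% in 4X and 50% in 2X, and chr16:11699001-11699500 just outside with 60.2% in 4X and 80.2% in 2X. The interval of the difference was 8.27 to 31.0 points just inside and 9.49 to 30.01 points just outside among gains, and -29.1 to -10.3 points just inside and -32.8 to -6.41 points just outside among losses. Windows on either side of the threshold thus overlapped widely.

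The parts of a member add up to the sum that chose it, so the agreement between them is largely set by the selection and is given as a description. Of 411 gains with at least 20 CHG reads per library in each 250 bp part, 382 were higher in 4X in both parts, 289 of them by 10 points or more in both. Of 420 such losses, 386 were lower in both parts, 304 of them by 10 points or more in both. A CAG or CTG site has a CHG cytosine on the upper and on the lower strand, and such a pair is read from different strands. In gains the upper cytosines had 70.6% in 4X and 44.6% in 2X, and the lower ones 70.01% in 4X and 44.6% in 2X. In losses the upper cytosines had 36.9% in 4X and 61.7% in 2X, and the lower ones 36.2% in 4X and 61.8% in 2X. Both strands differed the way of the window in 294 of 302 gains and in 298 of 314 losses with at least 20 reads on each strand, and by 10 points or more on both strands in 87.1% of these gains and 79.9% of these losses.

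CHG cytosines that stand beside a CG, and so have no CHG partner on the other strand, had lower levels and differed in the same direction. They had 48.6% in 4X and 28.2% in 2X in gains, and 25.3% in 4X and 43.6% in 2X in losses. The size of the difference at these cytosines was 20.4 points in gains and -18.3 points in losses. Over all windows with CG kept they had 39.3% in 4X and 39.4% in 2X. Reads of these cytosines are part of the sums that chose the members, so their direction is largely set by the selection.

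Most CHG cytosines of a member differed by part of the range, and few were unmethylated in one library and methylated in the other. Reads of these cytosines make up the sums that chose the windows. Their direction is thus largely set by the selection, which bears on their levels too. In gains 2719 CHG cytosines had 10 reads or more in 4X and in 2X, of which 87.0% were higher in 4X and 55.9% were higher by 20 points or more. Only 36 of them were under 20% in 2X and at 80% or more in 4X. Of 2911 cytosines of losses, 87.7% were lower in 4X and 57.1% by 20 points or more, and 25 were at 80% or more in 2X and under 20% in 4X. Levels between 20 and 80% were found at 52.2% of the cytosines of gains in 4X and 64.0% in 2X, and at 53.8% of those of losses in 4X and 58.8% in 2X. In all windows with CG kept such levels were found at 25.44% in 4X and 25.95% in 2X. An intermediate level may be shared by all molecules or be a mixture of cells, vines or chromosome copies, which cannot be told apart here.

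Few members were in the state of CG without CHG in one library, a state known from gene bodies. Whether these windows lie in genes was not tested. In 19 gains the CHG level was under 10% in 2X, with a median of 30% in 4X (22.7 to 53.3%) and 6.41% in 2X. In 46 losses it was under 10% in 4X, with a median of 6.74% in 4X and 31.9% in 2X (23.0 to 56.3%). For comparison, 46268 windows with CG kept were under 10% in both libraries. The largest of the 19, starting at 5319001 on chromosome 1 and named after its value was seen, had 49.6% CHG in 4X and 5.13% in 2X with CG at 76.7% in 4X and 70.1% in 2X. A loss starting at 4587501 on chromosome 4, also named after its value was seen, had no methylated CHG read among 100 in 4X and 41.1% of 129 reads in 2X. A count of 0 among its reads leaves room for a low level. CHH in these 46 losses was 1.03% in 4X and 1.58% in 2X over all reads, and in the 19 gains 2.03% in 4X and 1.71% in 2X.

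CHH methylation was not used to choose the windows. It comes from the same libraries and largely from the same reads, so it is described without a test. In gains CHH was 3.33% in 4X (interval 3.29 to 3.37%) and 2.71% in 2X (2.68 to 2.75%) over all reads, a difference of 0.616 points (0.563 to 0.670). It was higher in 4X in 413 of 574 gains with at least 60 CHH reads, which is 72.0%, against 47.2% of all windows with CG kept. In losses CHH was 2.38% in 4X (2.34 to 2.41%) and 3.08% in 2X (3.04 to 3.12%), a difference of -0.704 points (-0.755 to -0.653). It was lower in 4X in 434 of 584 losses, which is 74.3%, against 52.4% of all windows with CG kept. Over all windows with CG kept the difference was -0.0595 points.

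The CHH difference was small beside the CHG difference but showed in the share of windows as well. CHH was 1 point or more higher in 4X in 189 gains, or 32.9%, against 15.8% of all windows with CG kept. It was 1 point or more lower in 4X in 220 losses, or 37.7%, against 16.9% of all windows with CG kept. CHH was under 5% in both libraries in 434 gains and 450 losses, or 75.6% and 77.1%, against 62.6% of all windows with CG kept. It reached 10% in a library in 14 gains and 16 losses, or 2.44% and 2.74%, against 3.98% of all windows with CG kept. The member with the highest CHH level, chr4:16677001-16677500, was named after its value was seen. It was a gain with CHH at 83.3% in 4X and 70.7% in 2X, CHG at 89.1% in 4X and 67.3% in 2X and CG at 82.1% in 4X and 79.5% in 2X. The CHH values so near to the CG level set it apart from the other members, whose highest was 32.6%. Whether its reads were wholly converted was not tested.

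**Figure D4:**
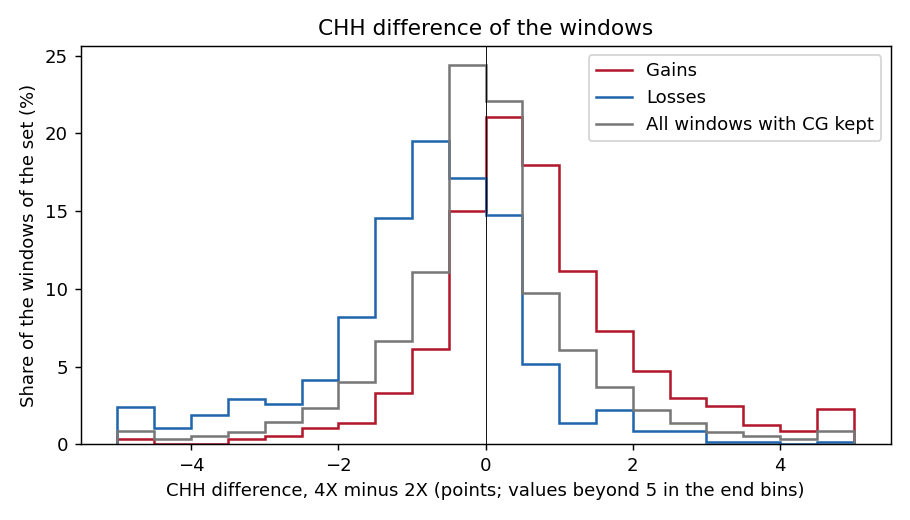
Share of windows (vertical axis, %) by CHH difference, 4X minus 2X (horizontal axis, points, in bins of 0.5), for gains (red), losses (blue) and all windows with CG kept (grey). The curve of gains is shifted to the right, with 72.0% of gains above 0, and that of losses to the left, with 74.3% of losses below 0.

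The CHG difference faded within about 1000 bp. A neighbouring window was used for CHG when it had at least 6 CHG cytosines and 60 CHG reads in each library, whatever its number of CG cytosines. Right beside a gain the CHG difference had a mean of 4.38 points on the side of lower coordinates and 3.49 points on the other. Beside a loss it had means of -3.08 and -4.17 points. Of the neighbours of gains, 19.8% were 10 points or more higher in 4X and 5.14% were 10 points or more lower. Of the neighbours of losses, 18.6% were 10 points or more lower in 4X and 3.77% were as much higher. Beside all windows with CG kept these shares were 3.55% higher and 3.79% lower. That set was not matched to the members in CHG level, and reads can cross the edge between neighbouring windows. At a distance of 2000 bp the mean was 0.276 and 0.181 points for gains and -0.252 and -0.419 points for losses. CHH followed the same shape, with a mean per window of 0.751 points in gains and 0.130 and 0.0756 points beside them, and of -0.837 points in losses and -0.266 and -0.216 points beside them.

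**Figure D5:**
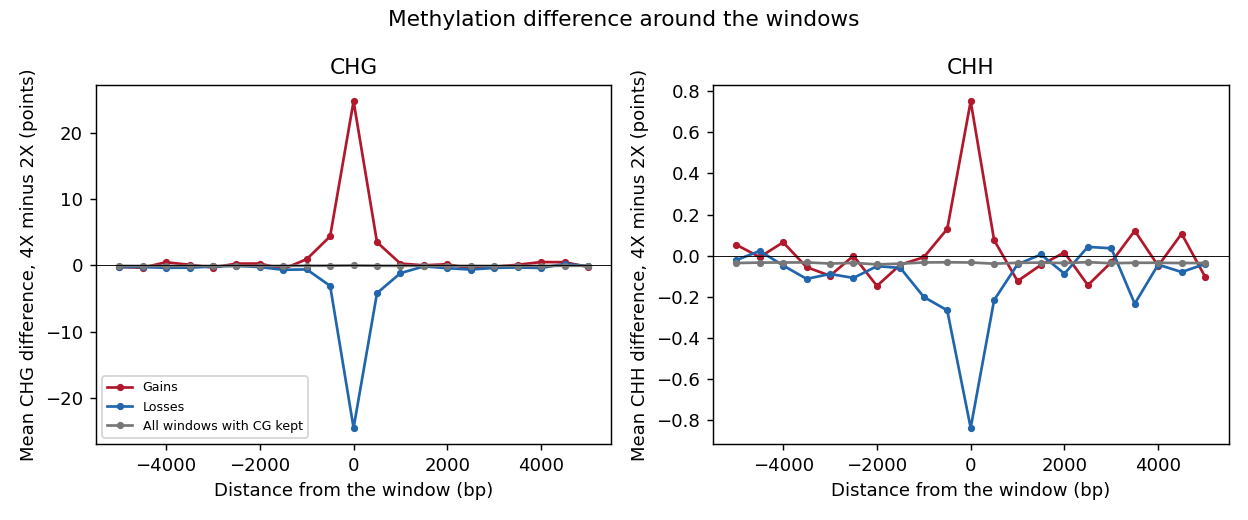
Mean CHG difference (left) and CHH difference (right), 4X minus 2X in points, by distance from the window in bp, for gains (red), losses (blue) and all windows with CG kept (grey). The peaks of 24.7 and -24.5 CHG points at the centre come from the selection, and the means beside them drop to 4.38 and 3.49 points for gains and to -3.08 and -4.17 points for losses.

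Some members stood between a window of low and a window of high CHG methylation. Of 237 gains with both neighbours measured, 48 had a neighbour under 20% CHG on one side and a neighbour at 50% or more on the other, which is 20.3%. Of 305 losses 82 did, which is 26.9%. The share was 5.24% of all windows with CG kept, and 8.42% of those with a pooled CHG level of 20 to 80%. Both neighbours were at 50% or more in 38.8% of gains and 24.9% of losses. The share was 51.1% of all windows with CG kept and 75.7% of those with a pooled level of 20 to 80%. Both neighbours were low in 8.02% of gains and 15.1% of losses, against 34.9% of all windows with CG kept and 2.00% of those with a pooled level of 20 to 80%. The remaining 32.9% of gains and 33.1% of losses had other mixes, against 8.75% and 13.9% in these 2 sets. The set with a pooled level of 20 to 80% was not matched to the members in CHG level within that range. In the wider surroundings the sets were closer to each other. Within 50 kb the CHG level had a median of 35.8% around gains and 31.8% around losses, against 33.4% around all windows with CG kept.

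Members were found on every chromosome. They made up 0.426% of the windows with CG kept on chromosome 5, the lowest share, and 0.869% on chromosome 19, the highest. Gains outnumbered losses by 37 to 18 on chromosome 11, or 0.490% and 0.238% of its windows with CG kept. Chromosome 5 had 15 gains and 29 losses (0.145% and 0.281%), and chromosome 8 had 12 gains and 26 losses (0.158% and 0.342%). These are the most uneven of the 19 chromosomes. Chromosomes 4 and 12 had equal numbers (30 and 30, 32 and 32), and chromosome 15 had 26 gains and 25 losses. Over all chromosomes the shares were 0.316% and 0.322%. A difference in direction between chromosomes was not tested. No annotation of the genome build of the files was used here, so windows are given by position and not by gene.

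Windows with CG kept held about the share of the CHG differences that their number gives. Whatever CG did, CHG was 20 points or more higher in 4X in 1125 windows and lower in 1043. CG was kept in 51.2% of the higher ones and 56.2% of the lower ones, near the 53.9% of all eligible windows. In 214 windows CG and CHG were both higher by 20 points or more, and in 128 both were lower by as much. CHH in those windows differed by 1.32 points where both were higher and by -1.35 points where both were lower, against 0.616 points in gains and -0.704 points in losses with CG kept. The difference between these sets was not tested.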

How the data were processed

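Whole-genome bisulfite sequencing libraries of 4X and 2X terminal buds, 1 each, were grouped by the ploidy in their labels. Low-quality reads were discarded by the authors and the rest aligned to the grape genome with Bismark (written Bimark in the methods). Not given in the sources used here are its version, the genome build, the conversion rate and how duplicates were handled. The deposited files give per cytosine a methylation level in percent, not used here, and the counts of methylated and unmethylated reads, not normalized. The lowest depth listed was 3 reads.

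Cytosines listed in both files on chromosomes 1 to 19 were summed in windows of 500 bp with Python 3.11.15, numpy 2.4.6 and pandas 2.3.3. Levels carry 95% Wilson intervals and differences Newcombe intervals. PCR duplicates and cytosines on the same read are not independent. The intervals cover counting error only and may be too narrow even for that. Reads were re-dealt 3 times with a fixed seed. The counting of windows was tested on simulated data. With 1 library per line no test between lines was made. Windows named are, in each direction, the 6 with the largest CHG difference, the 3 with most CHG reads in the shallower library, those just inside and outside the threshold and the longest run, ties going to the run with most reads. Strands, which the files do not give, were inferred from the spacing of CHG pairs. The windows and the lists were chosen with earlier results of these data known. Alternatives covered depth, the averaging of levels, the window grid and the thresholds.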

Additional observations from a re-analysis of the deposited data

Results flagged for a closer look

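CHG cytosines present in a single file could not enter the selection, and their levels are given because they lie outside the comparison and were far above 0. In gains, the 612 cytosines listed in 4X only had a CHG level of 69.1% (95% Wilson interval 67.4 to 70.7%), and the 651 listed in 2X only had 59.7% (58.0 to 61.4%). At the shared cytosines of the same windows the level was 67.2% in 4X and 42.4% in 2X. In losses, the 658 cytosines listed in 4X only had 52.9% (51.1 to 54.6%), and the 660 listed in 2X only had 58.3% (56.6 to 59.9%), beside 35.1% in 4X and 59.5% in 2X at the shared ones. Over all windows with CG kept the level was 54.3% in 4X and 56.1% in 2X at such cytosines. These are different cytosines in each library, with a mean depth of 4.72 to 5.26 reads in the members, so the levels are set side by side and were not compared.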

How the results depend on the processing

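Counts followed the depth and the thresholds. With cytosines of at least 10 reads in both libraries there were 136 gains and 145 losses, with at least 100 CHG reads in each library 279 gains and 322 losses, and at a CHG difference of 30 points or more 69 gains and 70 losses. The windows with CG kept also fell, from 181991 to 64466 with at least 10 reads and to 152032 with at least 100 CHG reads. Gains were 0.211% and losses 0.225% of those 64466, and 0.184% and 0.212% of those 152032. In the main setting they were 0.316% and 0.322%, and at 30 points or more 0.0379% and 0.0385%. In the other 6 alternatives the counts stayed within 1.5 times, between 401 and 672 gains and between 422 and 670 losses. Gains were then 0.287 to 0.374% and losses 0.302 to 0.373% of the windows with CG kept. Gains were 46.4% of members with at least 100 CHG reads and 48.4 to 50.8% in the other 8 alternatives. The CHH difference in gains was 0.531 points with the mean of the cytosine levels used to choose windows and 0.506 points with windows shifted by 250 bp. In losses it was -0.639 points with at least 5 reads per cytosine, -0.761 points with at least 100 CHG reads and -0.925 points at 30 points or more. The sign of the CHH difference was kept in all 9 alternatives in both directions. Of 25 named windows, 3 left their interval with at least 10 reads per cytosine, where 1 more gave no value, and 1 with the mean of the cytosine levels. No paired analysis was possible because there was a single library for 4X and for 2X. Single windows were limited by depth. In 297 gains (51.6%) and 264 losses (45.1%) a library had under 100 CHG reads, against 16.5% of all windows with CG kept.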
